A study of Rattus norvegicus and Mus musculus with 9 samples.

Results

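The Hox genes and a set of positional transcription factors of mesenchyme were described in embryonic stem (ES) cells of rat and mouse and in embryonic fibroblasts of rat. The members were the genes whose symbol is Hoxa, Hoxb, Hoxc or Hoxd followed by a number and 26 named factors: the cofactor genes Pbx2, Pbx3, Meis1, Meis2 and Meis3, the T-box genes Tbx2, Tbx4, Tbx5, Tbx15, Tbx18 and Tbx20, the paired-type homeobox genes Pitx1, Prrx1, Prrx2, Shox2, Alx1 and Alx4, the homeobox genes Meox1, Meox2, Msx1, Msx2 and Lmx1b, and Tcf21, Foxf1, Osr1 and Osr2. The rule goes by symbol alone, but it was written with earlier results of these data known. Of 65 such symbols in the rat RefSeq gene table, 47 had a probe set of their own among the 14506 named genes of the rat arrays, 22 of them Hox genes and 25 others. The other 18, which were 17 Hox genes and Foxf1, had no rat value. The mouse arrays held 63 members among 19938 named genes, and 46 members were measured in both species.

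Labelled DNA made from total RNA was hybridized to 9 arrays, 3 for each kind of cell. Rat ES cells of strain DA were grown in a medium called 3I in the labels, and embryonic fibroblasts of the same strain in GMEM with 10% FBS. Mouse ES cells of strain C57/BL6 were grown in GMEM with 10% FBS and LIF and were freed of feeder cells before extraction, a step the labels do not mention for the rat ES cells. Neither the stage nor the body region from which the fibroblasts were derived is stated in the labels, which matters for genes that mark position. Medium differs between the rat groups together with the kind of cell, so these cannot be told apart. In extracts of whole cultures, fewer cells that express a gene and less RNA of it per cell cannot be told apart either.

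Hox genes encode homeodomain proteins and lie in clusters named Hoxa to Hoxd. The number in a symbol gives the paralogue group, which follows the order of the genes along the cluster: low numbers are used towards the head, high numbers towards the tail and the ends of the limbs. Fibroblasts of adults and embryos are known to keep a Hox pattern that reflects the body site they came from, whereas in ES cells the clusters are known to be held largely silent by Polycomb complexes. Pbx and Meis proteins are homeodomain cofactors of the TALE class that bind DNA together with Hox proteins, and the other members pattern limb, axial, facial and organ mesenchyme.

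The start regions of 5 members that differed between the rat groups are shown to place these genes in the genome. They are the Hox gene with the largest decrease in rat ES cells (Hoxd13), the Hox gene with the largest increase (Hoxa7), the Hox gene whose start region held a joint Hox and Pbx motif (Hoxa2), and members outside the clusters with a 13.1-fold and a 14.5-fold difference (Prrx1 and Meox2). Each run is the 250 bases before an annotated start from RefSeq, build GRCr8, read 5′ to 3′ on the strand of the gene, and capitals mark a motif match. For Hoxd13 and Meox2 this start is the first base of the annotated gene span. For Hoxa7, Hoxa2 and Prrx1 it is not, so their windows do not adjoin the start of the span.
Hoxd13, chr3:79977827-79978076, plus strand: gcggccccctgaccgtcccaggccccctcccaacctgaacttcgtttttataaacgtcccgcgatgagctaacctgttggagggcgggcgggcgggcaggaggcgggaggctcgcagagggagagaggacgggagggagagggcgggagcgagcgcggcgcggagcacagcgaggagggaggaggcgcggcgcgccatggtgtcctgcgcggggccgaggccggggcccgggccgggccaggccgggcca
Hoxa7, chr4:82648242-82648491, minus strand: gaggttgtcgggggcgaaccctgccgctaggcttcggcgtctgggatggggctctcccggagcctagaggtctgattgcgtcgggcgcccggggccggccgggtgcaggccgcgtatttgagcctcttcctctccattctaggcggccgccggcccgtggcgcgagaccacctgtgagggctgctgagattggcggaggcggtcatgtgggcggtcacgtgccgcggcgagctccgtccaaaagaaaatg
Hoxa2, chr4:82595693-82595942, minus strand: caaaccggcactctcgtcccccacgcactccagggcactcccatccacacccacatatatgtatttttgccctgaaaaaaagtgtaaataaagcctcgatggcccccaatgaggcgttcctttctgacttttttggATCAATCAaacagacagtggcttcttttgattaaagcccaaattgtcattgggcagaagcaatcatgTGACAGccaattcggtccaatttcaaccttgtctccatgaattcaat
Prrx1, chr13:78204074-78204323, minus strand: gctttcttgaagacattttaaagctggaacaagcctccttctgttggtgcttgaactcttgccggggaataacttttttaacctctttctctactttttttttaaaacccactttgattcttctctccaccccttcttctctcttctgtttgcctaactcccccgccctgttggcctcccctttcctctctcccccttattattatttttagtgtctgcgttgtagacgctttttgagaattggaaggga
Meox2, chr6:59583775-59584024, plus strand: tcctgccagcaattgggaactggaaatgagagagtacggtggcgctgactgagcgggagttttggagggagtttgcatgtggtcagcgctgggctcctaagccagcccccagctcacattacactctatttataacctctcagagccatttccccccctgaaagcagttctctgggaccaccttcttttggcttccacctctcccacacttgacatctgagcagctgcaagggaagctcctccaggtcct
The CpG dinucleotides in these windows numbered 30 for Hoxd13 and 28 for Hoxa7, which fell and rose respectively, against 6 for Hoxa2 and 4 each for Prrx1 and Meox2. The windows were searched on both strands for TGACAG, a sequence bound by Meis proteins, for TGATTNAT, bound by Hox and Pbx proteins together, for TAATTA, the core bound by many homeodomains, and for AGGTGT, part of a T-box site. Over all 33469 start regions in the table, cut to the same length, 15.8% held TGACAG, 2.82% TGATTNAT, 4.86% TAATTA and 11.6% AGGTGT. Among the 28 of 47 measured members with an entry, TGACAG was found in 5 (Hoxa2, Hoxa4, Tbx4, Tbx5 and Lmx1b) and TGATTNAT in 1, Hoxa2, on the strand opposite to the gene, while TAATTA and AGGTGT were in none. The matches did not overlap. These are matches of letters and not measured sites, and with start regions for only 28 of 47 members no statement on the members as a set is made from them.

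The identity of the rat cultures was read from marker genes. All 9 measured ES cell markers, with Pou5f1, Nanog and Sox2 among them, were higher in rat ES cells, and 8 of 10 fibroblast markers were lower. The exceptions were Fn1 (-0.86, limma adjusted p = 4.33e-06), under 2-fold, and Dcn (-0.23, limma adjusted p = 0.156). On the fibroblast arrays 2 of the 10 fibroblast markers, Dcn among them, lay below the array medians on every array. The mean signal over the fibroblast markers was 10.6 to 10.7 on the fibroblast arrays and 7.10 to 7.49 on the rat ES arrays (log2), where 3 of the 10 lay below the array medians on every array. Within the rat ES group, array 3 read higher than array 1 for all 10 fibroblast markers, with a median difference of 0.36. It also read higher for 8 of the 13 members called lower in rat ES cells, with a median difference of 0.05, and for 55.3% of all genes, with a median difference of 0.02. The part of fibroblast-like cells in the rat ES values was not tested. On the fibroblast arrays, markers of cartilage (Acan, Col2a1) and neural markers (Map2, Nes, Dcx) were also higher, 2 of 3 and 3 of 5 measured, whereas Tubb3 of the neural list differed the other way by 0.58, under 2-fold (limma adjusted p = 0.000234). In the same comparison 0 of 6 blood and 0 of 7 skeletal and cardiac muscle markers differed by the limma call, with 2 and 1 at an adjusted p under 0.05 but less than 2-fold. All 5 epithelial markers were higher in rat ES cells (median 4.58), and of 5 endothelial markers Pecam1 was higher there (4.58) and Tek lower (-1.31). The mean signals were 7.93 to 7.98 against 5.88 to 5.99 for cartilage and 7.03 to 7.12 against 5.73 to 5.84 for neural markers (log2), and their part in the results below was not tested.

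Rat ES cells were compared with rat fibroblasts by limma across all 14506 genes, and a gene was called at a Benjamini-Hochberg adjusted p under 0.05 and a 2-fold difference, which is 1 on the log2 scale. By this rule, which called 20.7% of all genes in either direction, 13 of 47 members (27.7%) fell in rat ES cells, against 10.1% of all genes, and 3 (6.38%) rose, against 10.6%. The decreases were divided unevenly: 10 of 25 members outside the Hox clusters fell and 0 rose, whereas 3 of 22 Hox genes fell (13.6%) and 3 rose (13.6%). At the 2-fold limit the Hox counts were thus close to the background in both directions. The median log2 difference was -0.71 outside the clusters and -0.29 for the Hox genes, beside -0.00070 over all genes. Decreases of any size at an adjusted p under 0.05 were seen in 31 of 47 members (66.0%), against 25.5% of all genes, and increases in 3, against 30.9% (56.3% in either direction). This count depended on normalization. Under quantile normalization Hoxc4, Hoxc5, Hoxd4 and Hoxd9 no longer passed (limma adjusted p = 0.079, 0.071, 0.089 and 0.057). Under median centring the same Hox genes and Alx4 (limma adjusted p = 0.0502) did not pass. The rat ES and fibroblast arrays did not overlap for 32 of 47 members, 11 of 22 Hox genes and 21 of 25 others, against 61.5% of all genes. No member outside the clusters was higher at an unadjusted p under 0.05 in the limma fit. These counts describe a list that was written with earlier results known. Of 10 measured TALE genes outside it, 4 rose and 0 fell, and of 25 other positional and mesenchymal factors 1 (Tbx3) rose and 8 fell. The labels do not say whether replicate arrays stand for separate cultures, so the p-values measure array-to-array spread that may be technical in origin.

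**Figure D1:**
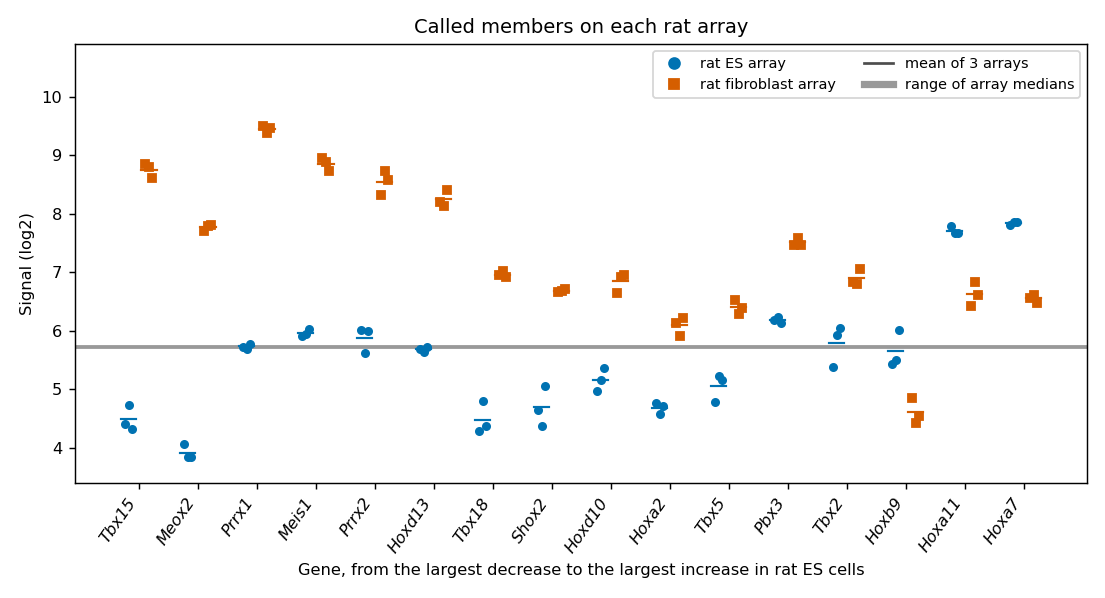
Log2 signal of the 16 called members on each rat array, with rat ES arrays as circles, fibroblast arrays as squares and the mean of 3 arrays as a short line; the grey band is the range of array medians. The 13 genes at the left are lower on every rat ES array than on any fibroblast array, and Hoxb9, Hoxa11 and Hoxa7 at the right are higher on every rat ES array.

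The signals were set against the level of the whole array. The medians over all probe sets lay between 5.71 and 5.74 on the 6 rat arrays. Of the 13 members that fell, 8 had rat ES signals below the median on every rat ES array, and none had a fibroblast signal there. Signals this low were not separated from background here, so the size of such a fold is uncertain. Different probe sets respond differently, so the signals of separate genes are not ranked against each other.

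In the Hoxd cluster, 2 of 6 measured genes fell, both of the high-numbered end. Hoxd13, which patterns the digits and the genital region, had log2 signals of 5.69, 5.63 and 5.73 on the rat ES arrays and 8.20, 8.13 and 8.40 on the fibroblast arrays. The rat ES arrays all lay below every fibroblast array, and the fold was 5.91 (log2 difference -2.56, SE 0.086, limma adjusted p = 5.2e-08). It was the largest difference among the measured Hox genes. Hoxd10, used in the lower spinal cord and the limb, was at 4.96, 5.15 and 5.37 in rat ES cells and 6.64, 6.92 and 6.95 in fibroblasts, 3.2-fold lower in rat ES cells (limma adjusted p = 4.8e-06). The arrays of the groups did not overlap for this gene either. For both Hoxd13 and Hoxd10 every rat ES signal lay below the array median, so the size of the fold is uncertain. Hoxd9, the next measured gene along the cluster, had a smaller difference of -0.48 (limma adjusted p = 0.0315), under 2-fold. Hoxd4 (-0.36), Hoxd1 (-0.15) and Hoxd3 (-0.03), of the head-side groups, were not called either, and the 95% interval for Hoxd3 ran from -0.38 to 0.32. Hoxd11 and Hoxd12, which lie between Hoxd10 and Hoxd13, had no rat value.

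The Hoxa cluster held members called in both directions. Hoxa2, a regulator of hindbrain and branchial arch identity, was at 4.76, 4.57 and 4.72 in rat ES cells and 6.14, 5.91 and 6.22 in fibroblasts. It was 2.65-fold lower in rat ES cells (limma adjusted p = 3.25e-06), with no overlap between the groups and all 3 rat ES signals below the array medians. Hoxa7, a trunk-level gene, was at 7.80, 7.86 and 7.85 in rat ES cells and at 6.56, 6.62 and 6.47 in fibroblasts. Here the rat ES arrays were the higher ones, and their range was 0.058. The difference was 2.44-fold (log2 difference 1.28, SE 0.068, limma adjusted p = 6.42e-07), and both groups lay above the array medians. Hoxa11, which patterns the forearm, kidney and uterus, was likewise higher in rat ES cells, at 7.79, 7.67 and 7.67 against 6.42, 6.83 and 6.62. Its difference of 2.13-fold (limma adjusted p = 3.01e-05) stood close to the 2-fold limit, and it fell below it at 0.99 on the log2 scale without fibroblast array 1, which was the lowest. Hoxa5, a gene of lung and axial patterning, had signals of 7.14, 7.37 and 7.67 in rat ES cells and 8.19, 8.27 and 8.13 in fibroblasts. All rat ES arrays lay below the fibroblast arrays, but the difference of -0.81 was under 2-fold (limma adjusted p = 0.000565). For Hoxa4 the difference was -0.38 (limma adjusted p = 0.0178). In the order of the cluster, then, the measured genes of groups 2, 4 and 5 had values below 0 and those of groups 7 and 11 above 0, while Hoxa9 and Hoxa10 between the last of these had no rat value.

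In the Hoxb cluster 1 of 7 measured genes was called. Hoxb9, a thoracic-level gene, had signals of 5.43, 5.49 and 6.01 in rat ES cells and 4.84, 4.43 and 4.54 in fibroblasts. Rat ES array 3 stood above the other two, and all 3 stood above the fibroblast arrays. The signals of all 3 fibroblast arrays and of 2 of the 3 rat ES arrays were below the array medians. The difference was 2.06-fold (limma adjusted p = 0.000648), the nearest to the limit among the called members. Without rat ES array 3 it was 0.86 on the log2 scale and without fibroblast array 2 it was 0.95, under 2-fold in both cases. Hoxb4, a gene of the neck region also known from blood stem cells, was at 7.24, 7.24 and 7.34 in rat ES cells and 7.62, 7.46 and 7.58 in fibroblasts. These groups did not overlap, and they differed by -0.28, well under 2-fold (limma adjusted p = 0.0103). Hoxb3 differed by -0.65 (limma adjusted p = 9.27e-05). Hoxb2 (-0.17), Hoxb7 (-0.10), Hoxb8 (0.16) and Hoxb13 (-0.01) did not pass the test at any size, and the signals of Hoxb2, Hoxb8 and Hoxb13 lay below the array medians on all 6 arrays.

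None of the 4 measured Hoxc genes was called in the limma fit, while 3 had an unadjusted p under 0.05 and 2 of these an adjusted p under 0.05. Hoxc4, a gene of the neck region, was at 4.90, 5.22 and 5.09 in rat ES cells and 5.22, 5.41 and 5.51 in fibroblasts. The groups overlapped, by a rat ES array and a fibroblast array that both read 5.22, and the difference was -0.31 (limma adjusted p = 0.0378). Hoxc5 (-0.47), Hoxc9 (-0.46) and Hoxc12 (0.01) also stayed under 2-fold. All 4 Hoxc genes were below the array medians on every rat array, and at that level little RNA cannot be told apart from an unresponsive probe set. The annotated spans of Hoxc4 and Hoxc5 also overlap that of Hoxc6 in GRCr8, and those of Hoxa4 and Hoxa5 overlap that of Hoxa3, so their signals may include a neighbour's transcript. None of the 6 called Hox genes overlaps another annotated gene there.

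Read by position along the clusters, 1 of 9 genes of paralogue groups 1 to 4 fell and none rose. By the same call 10.1% of all genes fell and 10.6% rose. At an adjusted p under 0.05 and any size, 25.5% of all genes were lower and 30.9% higher. There 6 of 9 genes of groups 1 to 4 (66.7%) were lower and 0 higher (0 also higher at an unadjusted p under 0.05 in the limma fit). Among these 6, the arrays of the groups overlapped for Hoxc4 and Hoxd4. Both lost this result under quantile normalization (limma adjusted p = 0.079 and 0.089) and under median centring (0.082 and 0.083). In groups 5 to 8, 1 of 5 rose and none fell, with 2 lower (40.0%) and 1 higher at any size. In groups 9 to 13, 2 of 8 fell and 2 rose, with 3 lower (37.5%) and 2 higher at any size. Hoxc5 of groups 5 to 8 and Hoxd9 of groups 9 to 13 also lost their any-size result under both normalizations. The calls in both directions among the high-numbered genes came from different clusters, with Hoxd10 and Hoxd13 lower and Hoxa11 and Hoxb9 higher.

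**Figure D2:**
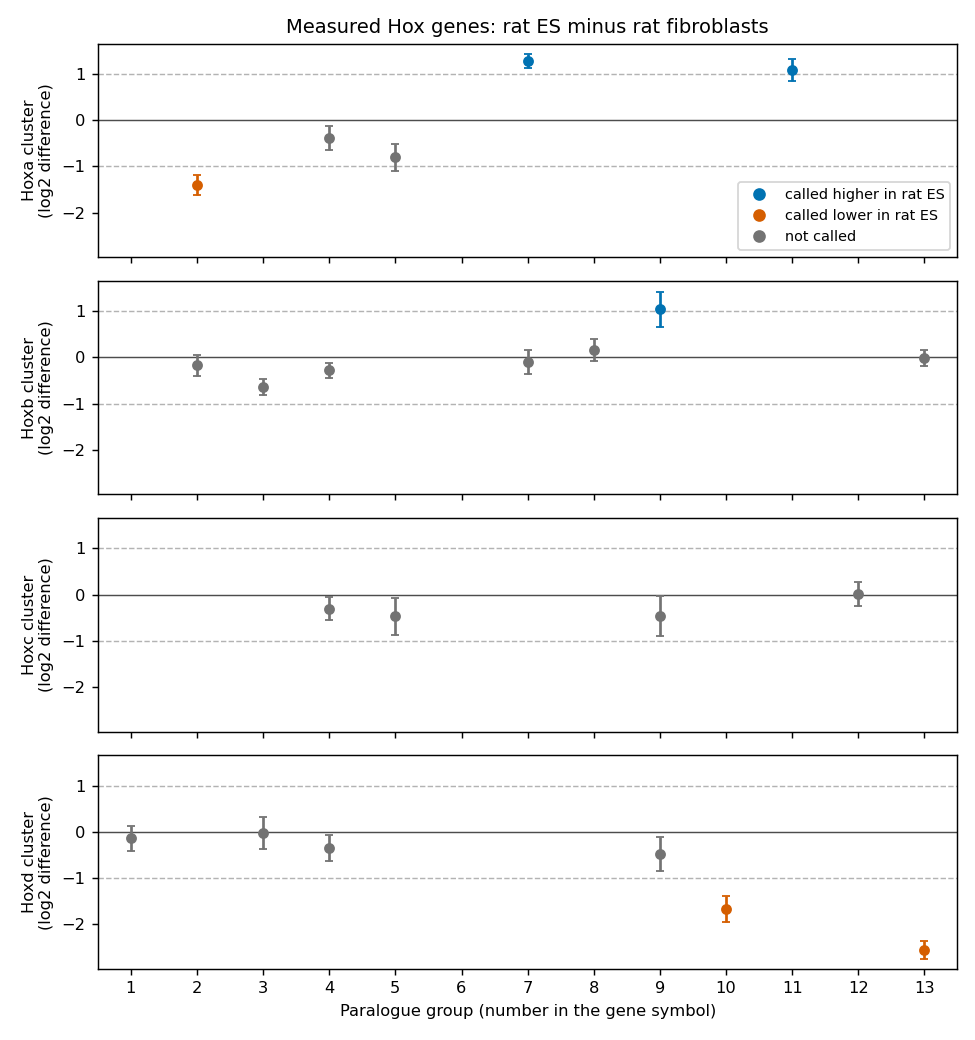
Log2 difference between rat ES cells and rat fibroblasts for each of the 22 measured Hox genes, by paralogue group within each cluster; bars are 95% intervals of the limma fit over 3 arrays per group, and dashed lines mark a 2-fold difference. The values at the Hoxd end reach -1.68 and -2.56, those of Hoxa7, Hoxa11 and Hoxb9 lie just above 1, and no Hoxc gene lies beyond a dashed line.

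Among the TALE cofactors, 2 of 5 fell. Meis1, a cofactor of proximal limb and blood development, was at 5.90, 5.94 and 6.03 in rat ES cells and 8.96, 8.88 and 8.73 in fibroblasts. It was 7.45-fold lower in rat ES cells (log2 difference -2.90, SE 0.081, limma adjusted p = 2.01e-08), and the signals of both groups lay above the array medians. Pbx3, another of these cofactors, was at 6.17, 6.22 and 6.13 in rat ES cells and 7.47, 7.59 and 7.47 in fibroblasts, which made it 2.52-fold lower in rat ES cells (limma adjusted p = 5.82e-07), also without overlap. The paralogues of these genes differed less. Pbx2 had a difference of -0.49 (limma adjusted p = 0.000354), Meis3 of -0.75 (limma adjusted p = 0.00163) and Meis2 of 0.05, with a 95% interval from -0.35 to 0.45. For Meis2 the rat ES arrays spread from 6.26 to 7.04 around fibroblast arrays of 6.54 to 6.62.

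Of 6 T-box genes, 4 fell. Tbx15, which shapes the skeleton, skin pattern and muscle, showed the largest difference of all members, with signals of 4.41, 4.73 and 4.32 on the rat ES arrays and 8.85, 8.80 and 8.61 on the fibroblast arrays. It was 19.2-fold lower in rat ES cells (log2 difference -4.26, SE 0.12, limma adjusted p = 1.97e-08), with every rat ES signal below the array medians. Its close relative Tbx18, active in somites, ureter mesenchyme and the epicardium, was at 4.28, 4.80 and 4.36 in rat ES cells and 6.94, 7.01 and 6.91 in fibroblasts. Rat ES array 2 was the highest of its group for both genes, and still far below the fibroblast arrays; Tbx18 was 5.56-fold lower in rat ES cells (limma adjusted p = 6.1e-07). Tbx5, the forelimb and heart factor, was at 4.78, 5.22 and 5.16 in rat ES cells and 6.52, 6.29 and 6.39 in fibroblasts (limma adjusted p = 1.94e-05). It was 2.54-fold lower in rat ES cells, and its hindlimb counterpart Tbx4 had a difference of -0.64 (limma adjusted p = 3.22e-05), under 2-fold. The rat ES signals of Tbx18 and Tbx5 also lay below the array medians on every rat ES array. Tbx2, a repressor used in limb, heart and lung, was at 5.38, 5.93 and 6.05 in rat ES cells and 6.82, 6.80 and 7.06 in fibroblasts. The groups did not overlap, the difference was 2.16-fold (limma adjusted p = 0.000453), and without rat ES array 1, the lowest, it was -0.91 on the log2 scale, under the limit. Tbx20, a heart factor with signals below the array medians on all 6 arrays, differed by -0.49.

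Of 6 paired-type homeobox genes, 3 fell. Prrx1, a limb and facial mesenchyme factor often used to mark limb mesenchyme, was at 5.73, 5.68 and 5.78 in rat ES cells and 9.49, 9.39 and 9.46 in fibroblasts. The range was 0.097 over the rat ES arrays and 0.104 over the fibroblast arrays, and the groups differed 13.1-fold (log2 difference -3.72, SE 0.067, limma adjusted p = 3.72e-09). Its paralogue Prrx2 was at 6.02, 5.62 and 5.99 in rat ES cells and 8.32, 8.73 and 8.58 in fibroblasts, 6.36-fold lower in rat ES cells (limma adjusted p = 5.49e-07). Shox2, which acts in the proximal limb and the sinus node of the heart, had rat ES signals of 4.65, 4.37 and 5.05, all below the array medians, and fibroblast signals of 6.66, 6.68 and 6.71. The fibroblast arrays had a range of 0.052 and the rat ES arrays one of 0.676, and the difference was 3.98-fold (limma adjusted p = 5.78e-06). Pitx1, which specifies the hindlimb, had a difference of -0.71 (limma adjusted p = 3.47e-05). Neither Alx4 (-0.29, limma adjusted p = 0.023) nor Alx1 (-0.08, limma adjusted p = 0.647), genes of the facial skeleton, was called.

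Among the remaining homeobox genes 1 of 5 fell. Meox2, a somite and limb muscle factor also known from vessels, was at 4.05, 3.84 and 3.83 in rat ES cells and 7.70, 7.78 and 7.81 in fibroblasts. It was 14.5-fold lower in rat ES cells (log2 difference -3.85, SE 0.082, limma adjusted p = 6.28e-09), and the rat ES signals were among those far below the array medians. Its paralogue Meox1 differed by -0.48 (limma adjusted p = 0.0023), with signals below the array medians in both groups. Msx1, a factor of undifferentiated limb and tooth mesenchyme, had a range of 0.837 over the rat ES arrays, more than the difference of -0.60 between the groups (limma adjusted p = 0.0215), although the groups did not overlap. Msx2 (-0.04) and the dorsal limb factor Lmx1b (-0.07) did not pass at any size, with intervals from -0.25 to 0.16 and from -0.22 to 0.07. None of the 3 measured zinc finger and bHLH genes was called in the limma fit, and 2 had an adjusted p under 0.05 but less than 2-fold. These were Osr1 (-0.75) and Osr2 (-0.58), factors of kidney, limb and palate mesenchyme, beside Tcf21 (-0.07), a factor of visceral mesenchyme.

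**Figure D3:**
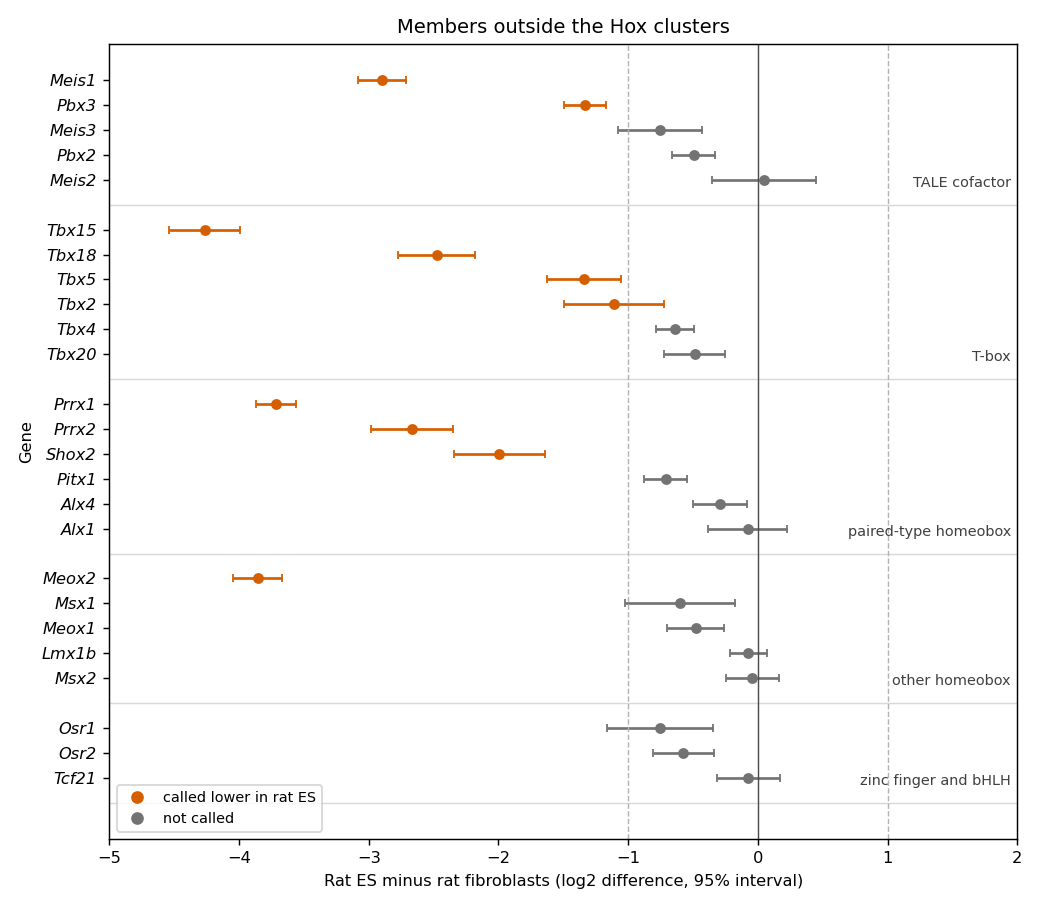
Log2 difference between rat ES cells and rat fibroblasts for the 25 measured members outside the Hox clusters, grouped by protein class; bars are 95% intervals of the limma fit over 3 arrays per group, and dashed lines mark a 2-fold difference. Tbx15, Meox2 and Prrx1 lie furthest to the left at -4.26, -3.85 and -3.72, and Meis2 at 0.05 is the only value above 0.

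Within several pairs of paralogues the members differed in size of change. Prrx1 and Prrx2 fell, as did Tbx15 and Tbx18, whereas Meox2 fell by 3.85 and Meox1 had a difference of -0.48. Meis1, Meis2 and Meis3 stood at -2.90, 0.05 and -0.75. The difference between paralogues was not tested. The 18 members with an adjusted p under 0.05 but less than 2-fold all had negative values, from -0.81 to -0.28, and comprised 8 Hox genes and 10 others. The remaining 13 uncalled members had values from -0.46 to 0.16. Of the 16 called members, Tbx15, Tbx2, Pbx3, Prrx1 and Shox2 overlap another annotated gene in GRCr8, and the strand read by the probes is not stated in the sources used here.

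Other genes of the same system were read from lists. By the call, 10.6% of all genes rose in rat ES cells and 10.1% fell. Of 10 measured TALE genes that are no members, 4 rose in rat ES cells and none fell, with 2 lower at an adjusted p under 0.05 but less than 2-fold. The largest of these increases were in Pknox1, a Meis-related cofactor of Pbx proteins, from 6.20 ± 0.050 (log2, SD, n = 3) in fibroblasts to 8.73 ± 0.048 in rat ES cells (log2 difference 2.52, limma adjusted p = 1.47e-08), Pbx4 (1.34, limma adjusted p = 6.21e-06) and Tgif2 (1.19, limma adjusted p = 1.8e-06). Their median was near 0 at -0.05. Of 12 measured regulators of Hox expression, 2 rose and 4 fell (median -0.67). Cdx2, a caudal factor that activates Hox genes and marks trophoblast, rose by 3.80 (limma adjusted p = 1.57e-08). In the retinoic acid branch of this list, Dhrs3, which limits retinaldehyde, fell by 2.82 (limma adjusted p = 8.27e-08), and the receptor gene Rarg fell by 2.59 (limma adjusted p = 2.41e-08). Of 14 measured genes that flank the clusters, 3 rose and none fell (median 0.40). At an adjusted p under 0.05 and any size, 8 of the 14 were higher and 4 lower, against 30.9% and 25.5% of all genes. The 3 that rose were Snx10 (2.09) and Skap2 (1.33), which lie beside the Hoxa cluster, and Skap1 (1.00), which lies beside Hoxb. They had limma adjusted p = 1.28e-07, 5.73e-07 and 0.00828. Of 25 other positional and mesenchymal transcription factors, 8 fell and 1 rose (median -0.65). Snai2, a mesenchymal repressor, fell by 4.41 and Zeb2 by 2.16, while Tbx3, a T-box gene also active in ES cells, rose by 4.66 (limma adjusted p = 3.72e-09, 1.8e-07 and 3.72e-09).

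Mouse and rat arrays are of different platforms, so members were set side by side as percentiles within each array, among the 12114 symbols measured in both species. The percentile of a gene also depends on its probe set on each platform, and no test was made, since an exact permutation of 3 arrays against 3 could not reach significance. On the mouse arrays, 23 of the 46 shared members had the same value on all 3 arrays, as did 6367 of all 12114 symbols. Some of these values were also shared by different genes, such as 4.55 for Tbx20 and Osr1 and 3.95 for Meox2 and Hoxa9 (log2). The mouse arrays correlated at 0.991 to 0.994 over all probe sets. The origin of the repeated values was not tested. Whether these are 3 independent hybridizations was not settled, so no SD over them is given, and counts without overlap may rest on fewer than 3 independent mouse samples. The median percentile of the members was 26.9 on the mouse arrays, 34.1 on the rat ES arrays and 45.0 on the fibroblast arrays. Among the shared symbols, 2 of 46 members (Pbx2 and Lmx1b) had a mean percentile above 50 in mouse ES cells, 8 in rat ES cells and 18 in rat fibroblasts. These counts depended on the genes ranked: among all named genes of each table they were 11, 10 and 25, with medians of 38.1, 40.8 and 50.9. Mouse ES arrays were below all rat ES arrays for 21 of 46 members, against 42.5% of all shared symbols, and above them for 16, against 44.9%. Among all named genes the split was 18 below and 21 above, so no direction between the ES cells of rat and mouse is drawn. For Hox genes the count among shared symbols was 11 of 21 below and 7 above, and for the other members 10 of 25 below and 9 above; among all named genes these were 9 and 9, and 9 and 12. Compared with rat fibroblasts, the mouse ES arrays were lower without overlap for 30 members, against 42.1% of symbols, and also for 30 among all named genes.

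All 13 members that fell in rat ES cells were also at lower percentiles on every mouse ES array than on any rat fibroblast array; since the call that chose these members rests in part on high fibroblast values, this is a description. Tbx15 was at percentiles of 7.4, 7.3 and 7.5 on the mouse ES arrays, 13.7, 19.2 and 12.1 on the rat ES arrays and 85.3, 84.5 and 82.7 on the fibroblast arrays. Prrx1 was at 18.7, 18.2 and 18.7, then 36.2, 35.6 and 36.5, then 91.6, 90.6 and 91.5 in the same order. Both ES groups were therefore far below the fibroblasts for these mesenchymal genes, although each of the 2 genes had the same signal on all 3 mouse arrays. Hoxd13 was at 24.5, 23.9 and 23.0 in mouse ES cells and 35.6, 34.8 and 35.7 in rat ES cells, against 76.4, 74.9 and 79.8 in fibroblasts.

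The widest gaps between rat and mouse ES cells are given for 4 members in each direction, among those whose arrays did not overlap. Of these, Hoxa5, Hoxa11, Hoxb4, Hoxc9 and Tbx20 had the same signal on all 3 mouse arrays. The small differences in their mouse percentiles come from the other genes ranked and are no spread between replicates. Hoxa5 was at 4.5, 4.4 and 4.6 in mouse ES cells and 57.6, 60.5 and 65.2 in rat ES cells. Hoxa11 was at 22.8, 22.4 and 23.0 against 68.2, 65.4 and 65.4, and Hoxa7 at 28.4, 28.2 and 27.6 against 68.4, 68.8 and 68.5. Hoxa7 and Hoxa11 are the Hoxa genes that rose in rat ES cells relative to rat fibroblasts, and the mouse arrays lay below the rat fibroblast arrays for Hoxa5, Hoxa7 and Hoxa11. Hoxb4 followed at 26.0, 25.4 and 26.1 against 59.1, 58.7 and 60.0. In the other direction, Hoxc9 was at 34.7, 34.2 and 34.8 in mouse ES cells and 9.1, 2.7 and 4.2 in rat ES cells, Tbx20 at 27.1, 26.5 and 27.2 against 8.3, 7.0 and 5.3, Osr2 at 31.1, 37.1 and 31.3 against 15.0, 19.7 and 18.3 and Hoxb9 at 48.6, 49.6 and 48.8 against 30.8, 32.4 and 40.0. Hoxb9 thus lay above the rat fibroblasts in the ES cells of both species, at 19.5, 13.6 and 14.1 on the fibroblast arrays.

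**Figure D4:**
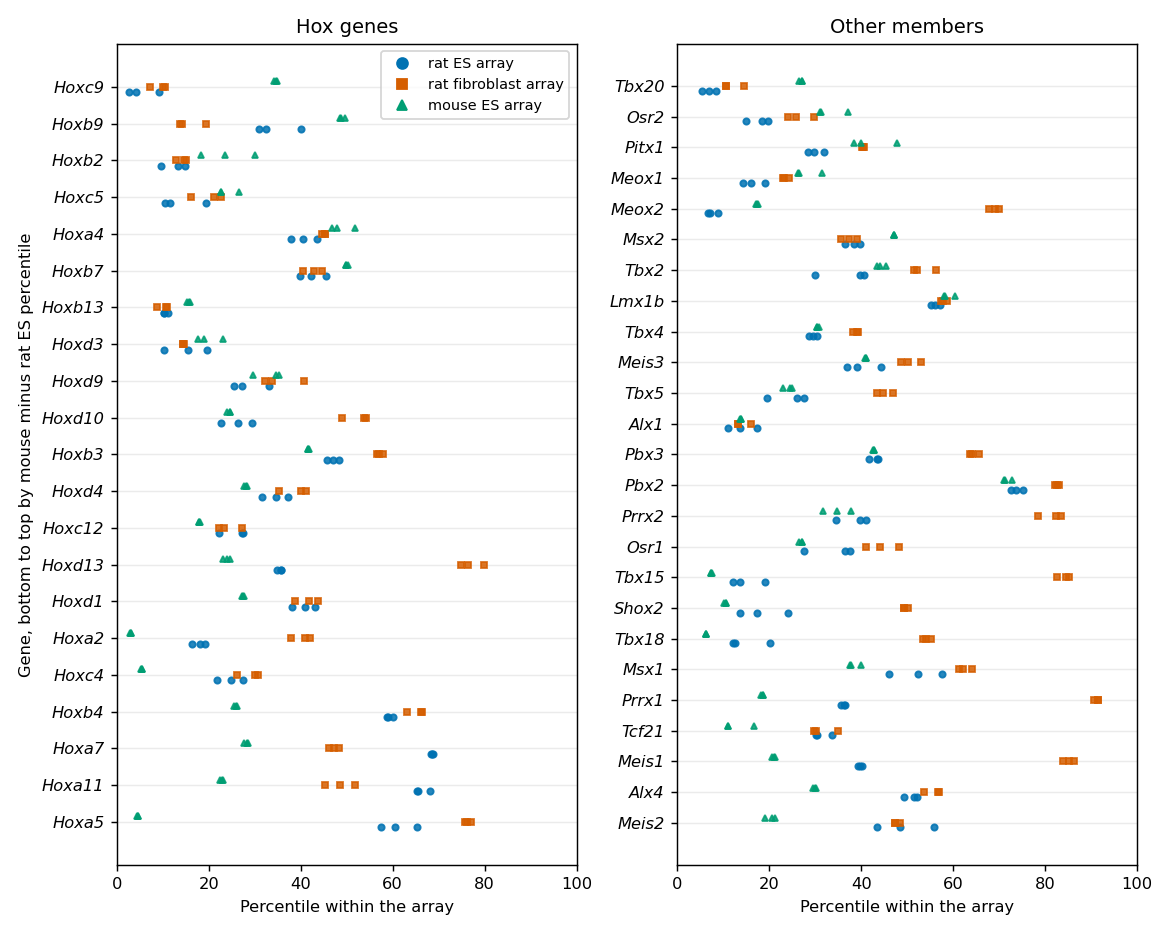
Percentile of each of the 46 shared members within each array, among 12114 symbols measured in both species, for rat ES arrays (circles), rat fibroblast arrays (squares) and mouse ES arrays (triangles); Hox genes are at the left and other members at the right. Mean percentiles of Tbx15 and Prrx1 are 84.2 and 91.3 in fibroblasts, 15.0 and 36.1 in rat ES cells and 7.39 and 18.5 in mouse ES cells, while Hoxa7 and Hoxa11 are highest on the rat ES arrays.

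The 17 members measured only on the mouse arrays, 16 Hox genes and Foxf1, had percentiles from 20.7 to 55.3 among all named mouse genes, with a median of 32.7. Hoxd11, a forearm and kidney gene, was at 54.4, 58.3 and 53.0, and Hoxb1, a hindbrain gene responsive to retinoic acid, was at 51.9, 51.8 and 52.0. The mean percentiles of the other 15 were under 50. Of all 37 Hox genes on the mouse arrays, 6 had a mean percentile above 50 among all named mouse genes; among the shared symbols none of the 21 shared Hox genes had a mean percentile above 50. Hoxb8 was measured in rat only.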

How the data were processed

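The authors deposited log2 signals per probe set for 6 rat and 3 mouse arrays in separate tables; the log2 scale was read from the range of the values. Biotin-labelled DNA was hybridized, per the labels' protocols. How background was corrected and arrays were normalized, and the genome build, are not given in the sources used. The values were used without further normalization. Genes were named through the platform annotation, which can be old, by probe sets with a single symbol, keeping for each symbol the probe set with the highest mean. All 47 rat members had 1 probe set and the same symbol in RefSeq (GRCr8).

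Differences between the rat groups came from limma 3.58.1 run under R 4.3.3 (lmFit, eBayes, group only, no filter), adjusted by Benjamini-Hochberg over all 14506 genes. The fit was tested on simulated data. The number of arrays limits precision. Members and lists were chosen with earlier results of these data known. Values on every array are given for called members and, in each Hox cluster, for the member with the highest fibroblast mean, a rule for what to print and not a comparison of levels; in other lists, up to 3 called genes are named. Between mouse and rat ES cells, up to 4 members with the widest percentile gaps each way are named, among those without overlap.

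The alternatives were other normalization, level filters, probe set rules, eBayes settings, thresholds, a block for the replicate number, and each array left out in turn. Same-numbered rat arrays had deviations that correlated at -0.00044, 0.031 and -0.0003, so they were not treated as pairs.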

Additional observations from a re-analysis of the deposited data

How the results depend on the processing

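The counts of 13 members lower and 3 higher were unchanged under quantile normalization, median centring and the 25th percentile filter. These counts were also unchanged under both probe set rules, eBayes with trend and robust settings and an adjusted p under 0.01. With the replicate block they were 13 and 3, and 10 outside the Hox clusters. Genes above the median of level, 16 members tested, left 6 lower, 1 of them a Hox gene and 5 others; fewer members were tested there. With no fold limit 31 fell, 11 Hox genes and 20 others. Of these, Hoxc4, Hoxc5, Hoxd4 and Hoxd9 lost an adjusted p under 0.05 with quantile normalization or median centring, and Alx4 with median centring. At 4-fold 7 fell, 1 Hox gene and 6 others, and 0 rose, among members or among Hox genes. Leaving out each array gave 12 to 13 members lower and 2 to 3 higher, 3 to 3 and 2 to 3 for Hox genes, and 9 to 10 lower outside the clusters. Of 620 recomputed member differences, 4 lost the call by falling under 2-fold, in Tbx2, Hoxa11 and Hoxb9, and 0 reversed a call.

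The median percentile of mouse minus rat ES cells was -1.96 and turned to 2.08 among all named genes; the cause was not tested. With the level filter in both tables, 20 members were left, 8 lower and 6 higher in mouse. Leaving out each array gave 21 to 24 lower, 16 to 18 higher and medians of -2.66 to -1.14. The gaps of the 8 members named for them kept their direction wherever they could be computed. Probe sets below the array medians limit what can be read of Hoxc genes and of the rat ES level of 8 of the 13 members that fell.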
